A study of Triticum aestivum with 24 samples.

Results

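The NAM genes of wheat studied here are 5 of the 107891 gene identifiers in the deposited table of leaf RNA sequencing. They were chosen by identifier, as a family of known function, with earlier results of these data known. NAM-1 is represented by its copy on chromosome 6A, NAM-A1 (TraesCS6A02G108300), and its copy on 6D, NAM-D1 (TraesCS6D02G096300). NAM-2 is represented by NAM-A2 (TraesCS2A02G201800), NAM-B2 (TraesCS2B02G228900) and NAM-D2 (TraesCS2D02G214100). All 5 were found in the table, and 2 of them, the copies of NAM-1, passed the filter on low values (a normalized count of 10 or more in 3 or more libraries), so they could be tested in the main fit. Bread wheat (Triticum aestivum) is a hexaploid whose subgenomes A, B and D each carry a copy of most genes.

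The samples were leaves of the spring wheat Fielder, labelled WT and not transformed, and of 3 transgenic lines made in Fielder. The lines express a wheat TOR gene (TaTOR, a protein kinase that ties growth to nutrient and energy supply) from 1 of 3 promoters, and carry the labels UBQ, DREM and DEH2 after them. With 3 libraries for each of the 4 genotypes in each of the 2 water regimes there were 24 libraries in 8 groups. Well-watered plants were kept at 80% field capacity until they were 4 weeks old, and drought was imposed by withholding water for 12 days; the sources used here do not give the sampling day, the position of the leaf on the plant or the number of independent transformants behind each line. They also do not say whether replicates are separate plants, so p-values reflect the spread between these libraries only, which may be technical.

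NAM genes encode transcription factors of the NAC family, which bind DNA and switch on programmes of late leaf life. In wheat, NAM-1 is the gene family of the grain protein locus Gpc-B1: when its copies are silenced or mutated, leaves stay green longer and less nitrogen, zinc and iron moves from leaf to grain. NAM-2 is the closely related family on the group 2 chromosomes, whose loss also delays senescence. The transcripts of both are known for rising in the flag leaf after flowering, while young leaves hold little of them. NAM-B1, the 6B copy of NAM-1, is lost or not functional in many modern wheats, and it was not analysed here.

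The libraries held an estimated 33700000 to 55400000 reads each, found from the step in normalized count that 1 read makes, which ran from 0.651 to 1.54 between libraries. Parts of some chromosomes went against the genotype labels. Against the median of all 4 groups under the same watering, a stretch at the start of 1B was low in DEH2 well-watered (median log2 deviation -3.61 over 328 genes) and in DREM drought (-3.64). On 2A, 1939 genes were low at a median of -0.70 in WT drought and -0.71 in UBQ well-watered. In UBQ drought the start of 6B was low (-2.93 over 365 genes) and a stretch of 4B was high (0.74 over 166 genes). None of these shifts was found in the other water regime of the same label, and none of the 5 NAM genes lies inside these stretches. In WT drought, replicate 1 stood apart: its top 50 genes held 29.0% of its total, and those of each of the other libraries of this group 12.6%. The groups are therefore named by their labels only. Whether a label stands for the same genotype in both water regimes, and whether libraries were exchanged between groups, cannot be told from these data, so each comparison is between labelled groups and may set different genotypes against each other. The level of TOR, which would check the labels, was not analysed here because the identifiers could not be paired with names. For the same reason the leaf identity of the tissue was not checked by markers.

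The NAM genes were close to silent in these leaves. Over all 24 libraries the 5 genes together received 224 reads out of an estimated 1060000000, or 0.211 in every 1000000 reads, and the highest library reached 0.582 in 1000000. Of the 120 values, 57 were 0, 40 stood for 1 to 3 reads and 23 for more than 3 reads. NAM-A1 received 84 reads in all and was seen in 19 libraries. NAM-D1 received 80 reads and was seen in 20 libraries. NAM-D2 received 31 reads, NAM-A2 received 20 and NAM-B2 received 9, seen in 8, 11 and 5 libraries. In bulk leaf tissue, fewer cells of a type and less RNA per cell cannot be told apart.

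Across the groups the mean of both NAM-1 copies was highest in well-watered leaves of UBQ, and 1 read of each copy was found in drought leaves of the same label. NAM-A1, the senescence regulator encoded on 6A, had normalized counts of 20.3, 10.5 and 8.78 in the 3 libraries of UBQ well-watered. In UBQ drought its values were 0, 0.916 and 0. It stood at 4.42, 7.68 and 1.45 in WT well-watered. All 3 UBQ well-watered values lay above those of both other groups just named. In WT drought NAM-A1 was at 4.14, 3.94 and 11.2, and the highest of these lay above 2 of the UBQ well-watered values. In DREM it was at 0, 1.06 and 0 in well-watered leaves, and at 2.80, 0.665 and 5.64 under drought. These WT groups overlapped each other, and so did those of DREM. In DEH2 the values were 1.01, 3.77 and 1.90 in well-watered leaves and 1.45, 0 and 2.56 under drought, again with overlap. DREM well-watered also held 1 read of NAM-A1, so its level and that of UBQ drought could not be ranked.

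NAM-D1, the copy on 6D, also had its highest mean in UBQ well-watered, where it overlapped WT drought, and 1 read each in UBQ drought and DEH2 drought, which could not be ranked. Its normalized counts were 11.4, 12.8 and 5.01 in UBQ well-watered. In UBQ drought they were 0, 0 and 0.704. In WT well-watered they were 1.47, 10.7 and 1.45, so that 1 library carried most of the signal, and the same library held 12 of the 18 NAM-1 reads of that group. WT drought had 6.86, 7.89 and 2.05. In DREM well-watered the values of NAM-D1 were 3.38, 4.23 and 2.50, in all 3 libraries above those of NAM-D1 in UBQ drought. DREM drought had 2.11, 4.71 and 4.71 and overlapped its well-watered group. In DEH2 NAM-D1 was at 3.00, 0.940 and 0.956 in well-watered leaves and at 0, 0 and 0.852 under drought, so these 2 groups did not overlap, although the higher group held only 5 reads and the lower only 1.

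**Figure D1:**
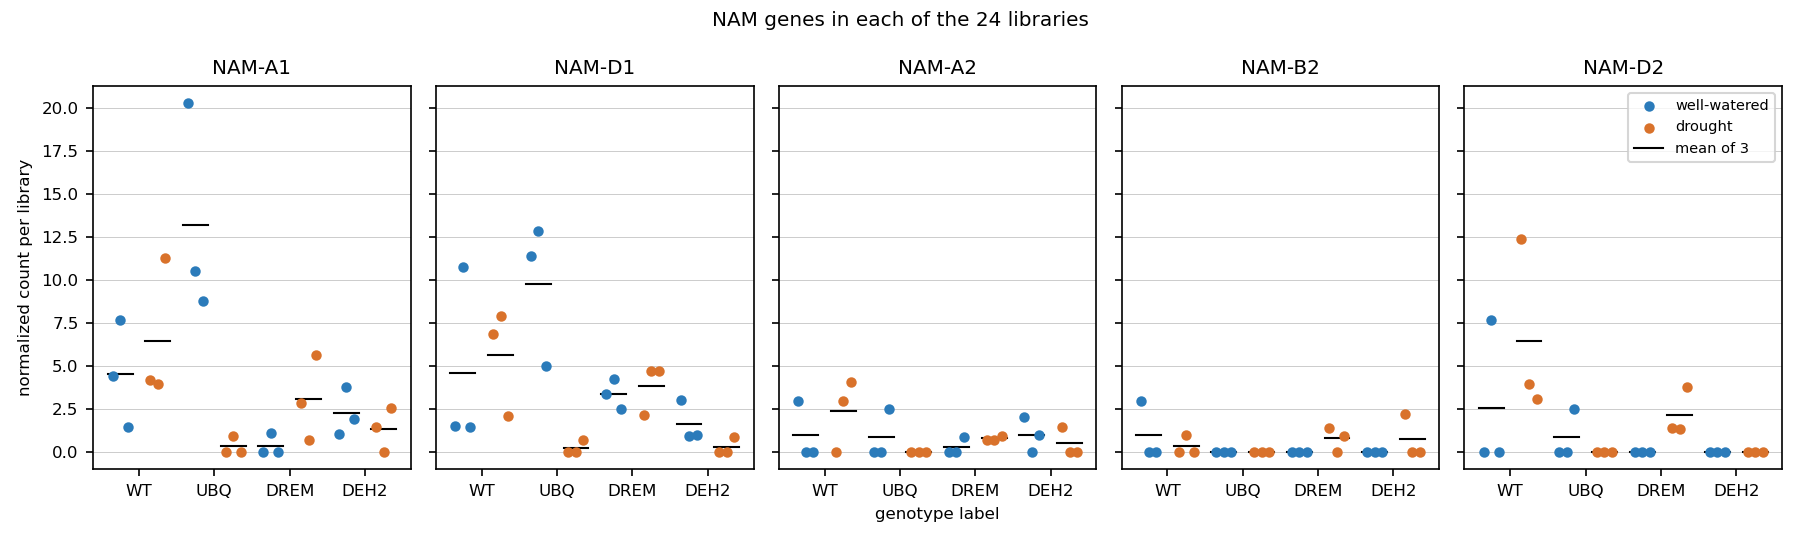
Normalized count (vertical axis) of each of the 5 NAM genes in each library, by genotype label; points are single libraries, coloured by water regime, and the black line is the mean of 3 libraries. NAM-A1 and NAM-D1 were highest in UBQ well-watered (up to 20.3 and 12.8) and near 0 in UBQ drought, and the NAM-2 copies were at 0 in most libraries.

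Of the NAM-2 copies, NAM-D2 was the one with the most reads, and its reads were mainly in drought leaves of WT and DREM. Its normalized counts were 12.4, 3.93 and 3.06 in WT drought and 1.40, 1.32 and 3.74 in DREM drought. In WT well-watered it was at 0, 7.66 and 0, with all 5 reads in 1 library. It was at 0 in all 3 libraries of DREM well-watered, DEH2 well-watered, UBQ drought and DEH2 drought, and in UBQ well-watered at 0, 0 and 2.50. A count of 0 over 3 libraries was taken to allow up to 3 reads, a level of 0.772 in UBQ drought and of 0.851 in DEH2 drought. The exact 95% Poisson upper limits for NAM-D2 were slightly higher, at 0.949 and 1.05. Such limits cover counting error only. NAM-A2 ranged from 0 to 4.08, with its highest values in WT drought (0, 2.95 and 4.08), and NAM-B2 ranged from 0 to 2.94. No group of NAM-A2 or NAM-B2 held more than 7 reads. UBQ drought was the group without a read of any NAM-2 copy.

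**Figure D2:**
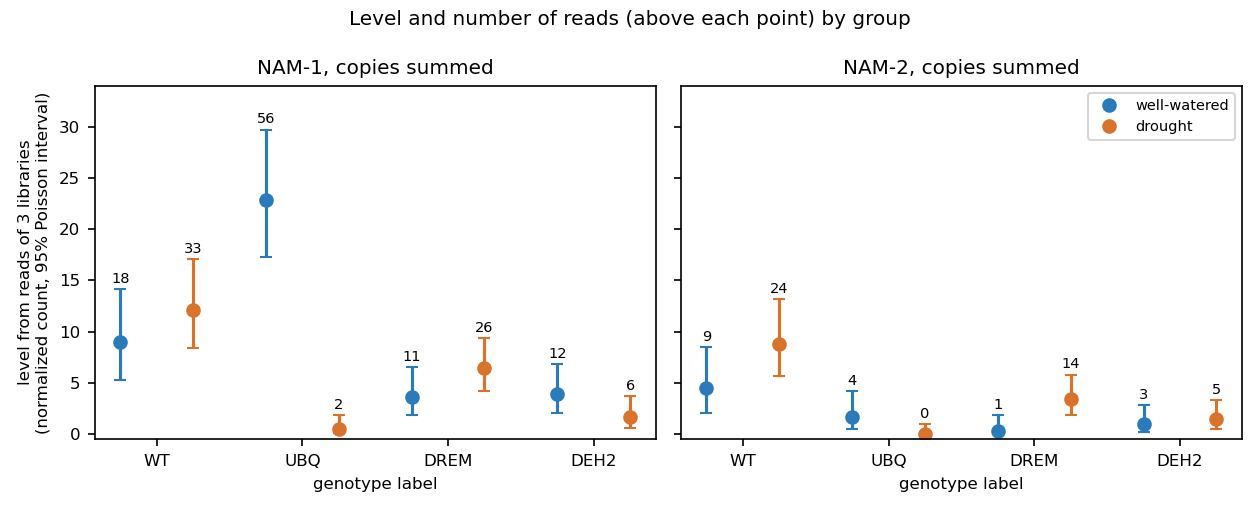
Level of NAM-1 (left, 2 copies summed) and NAM-2 (right, 3 copies summed) in each group, computed from the reads of its 3 libraries (vertical axis, in normalized counts); bars are exact 95% Poisson intervals and cover counting error only, and the number above each point is the number of reads. NAM-1 ran from 56 reads in UBQ well-watered to 2 in UBQ drought, and NAM-2 from 24 reads in WT drought to 0 in UBQ drought.

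Summed over its copies, NAM-1 had 22.9 ± 8.92 normalized counts in UBQ well-watered, and WT drought came next with 12.0 ± 1.16 (SD, n = 3 each). WT well-watered followed with 9.06 ± 8.23, DREM drought with 6.88 ± 3.01, DEH2 well-watered with 3.86 ± 0.940 and DREM well-watered with 3.72 ± 1.42 (SD, n = 3 each). The last were DEH2 drought with 1.62 ± 1.71 and UBQ drought with 0.540 ± 0.480 (SD, n = 3 each), which overlapped. Of the neighbours in this order, UBQ well-watered and WT drought did not overlap, nor did DREM drought and DEH2 well-watered, while the other neighbours overlapped. The low stretch of 2A was found in the same groups as the highest NAM-1 levels; its part in the NAM-1 levels was not tested. Between the groups with the low stretch NAM-1 was at 22.9 (UBQ, well-watered) and 12.0 (WT, drought), and between the groups of these labels without it at 9.06 (WT, well-watered) and 0.540 (UBQ, drought). For the NAM-2 sum the order began with WT drought at 9.13 ± 2.84, WT well-watered at 4.51 ± 4.01 and DREM drought at 3.70 ± 1.82 (SD, n = 3 each), and the other 5 groups lay between 0 and 1.67. All neighbours in the NAM-2 order overlapped.

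The main question of the design was how leaf expression changed with drought in each genotype. Between the groups labelled UBQ both NAM-1 copies fell with drought, and neither passed the test in WT, DREM or DEH2. The UBQ groups also differed on 2A (-0.71 well-watered, 0.06 drought) and at the start of 6B (-0.04 well-watered, -2.93 drought; median log2 deviations). The comparison may thus not set a genotype against itself, and the part of these stretches in the falls was not tested. In UBQ, NAM-A1 went from 13.2 ± 6.19 to 0.305 ± 0.529 normalized counts (SD, n = 3 each), a log2 change of -3.43 with a standard error of 0.66 (limma, Benjamini-Hochberg adjusted p = 3.04e-05). Its 32 reads against 1 read gave a ratio of 50.9 (95% interval for counting error 8.49 to 2071). NAM-D1 went from 9.74 ± 4.16 to 0.235 ± 0.407 (SD, n = 3 each), a log2 change of -3.08 with a standard error of 0.64 (limma adjusted p = 7.52e-05), and 24 reads against 1 read gave a ratio of 38.1 (6.22 to 1568). Changes were computed on log2(normalized count + 1), which understates the change of low genes. With drought in UBQ 72.8% of all 60088 tested genes were called and 35.6% were called lower, so a call by itself is common; the change of NAM-A1 was below that of all but 4.05% of tested genes and that of NAM-D1 below all but 5.03%. Both copies passed the filter on low values largely through UBQ well-watered, the group in which they were high. Each fall kept its call under all 32 alternatives run, including the omission of any library, with the set of tested genes held fixed. NAM-A1 reached 10 only in UBQ well-watered replicates 1 and 2 (20.3 and 10.5) and WT drought replicate 3 (11.2). NAM-D1 did so only in UBQ well-watered replicates 1 and 2 (11.4 and 12.8) and WT well-watered replicate 2 (10.7). The filter asks for 3 such libraries, so refiltering without 1 of them would have removed the copy. A stricter filter, under which no NAM gene was tested, is not among the alternatives.

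In WT the drought change of NAM-A1 was 0.48 ± 0.66 (standard error) and that of NAM-D1 0.53 ± 0.64 on the log2 scale (limma adjusted p = 0.552 and 0.490), in a comparison in which 61.4% of tested genes were called. The read ratio of drought to well-watered was 1.48 for NAM-A1 (counting interval 0.632 to 3.74) and 1.24 for NAM-D1 (0.506 to 3.20). Without replicate 1, the WT drought library that stood apart, neither was called. In DREM, where 68.9% of tested genes were called, NAM-A1 had a log2 change of 1.45 ± 0.66 (standard error), just outside the threshold (limma adjusted p = 0.0531, from 0.0174 to 0.245 over the alternatives), from 1 read to 11 reads. It was called in 8 of its 32 alternatives: a pseudocount of 0.5, no filter, libraries rescaled to the same sum, a constant prior, and the omission of DREM well-watered replicate 2, of DREM drought replicate 2, of DEH2 drought replicate 2 and of WT well-watered replicate 3. NAM-D1 in DREM changed by 0.11 ± 0.64 (limma adjusted p = 0.884). In DEH2, where 69.6% were called, the changes were -0.56 ± 0.66 for NAM-A1 and -1.01 ± 0.64 for NAM-D1 (limma adjusted p = 0.466 and 0.159).

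**Figure D3:**
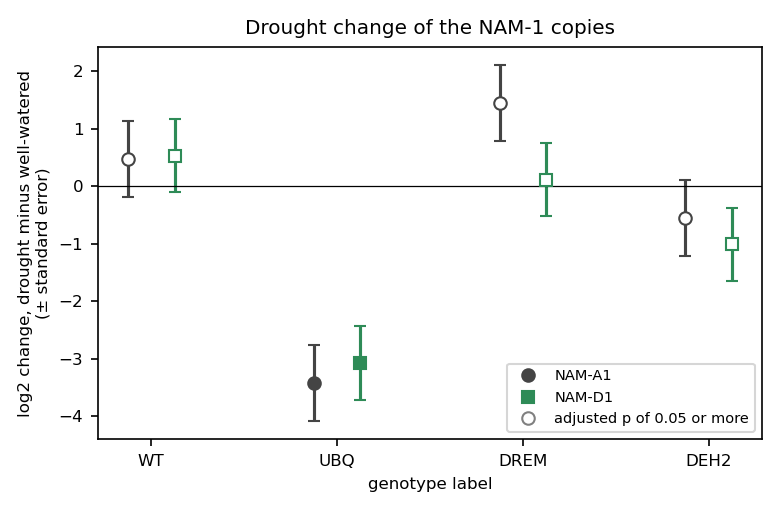
Change with drought of NAM-A1 (circles) and NAM-D1 (squares) in each genotype label, as the log2 difference of drought minus well-watered from the limma fit (vertical axis); bars are standard errors and open symbols did not pass an adjusted p of 0.05. The 2 filled symbols are the falls in UBQ, at -3.43 and -3.08.

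Averaged over the 4 genotypes, which does not depend on how genotype labels were given within a water regime but does depend on the regime labels, NAM-D1 fell with drought by 0.86 on the log2 scale with a standard error of 0.32 (limma adjusted p = 0.0144), in a comparison where 81.8% of tested genes were called. NAM-A1 had -0.51 ± 0.33 (limma adjusted p = 0.152). The average rests on UBQ: without that genotype NAM-D1 had -0.12 (limma adjusted p = 0.773) and NAM-A1 0.46 (limma adjusted p = 0.296). The call of NAM-D1 was also lost when libraries were rescaled to the same sum.

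The drought change of both NAM-1 copies differed between UBQ and WT. The difference of drought effects, UBQ minus WT, was -3.91 ± 0.94 (standard error) for NAM-A1 and -3.61 ± 0.90 for NAM-D1 (limma adjusted p = 0.000786 and 0.00117), with 51.7% of tested genes called. All 31 alternatives kept these calls, with the set of tested genes held fixed when libraries were left out. UBQ well-watered, through which both copies largely passed the filter, is a group in this difference, so these tests are not independent of the filter. For DREM minus WT the differences were 0.97 ± 0.94 and -0.42 ± 0.90, and for DEH2 minus WT -1.03 ± 0.94 and -1.54 ± 0.90, none of them called (limma adjusted p from 0.161 to 0.743); 44.4% and 48.7% of tested genes were called in these comparisons. NAM-D1 in DEH2 minus WT was called without WT well-watered replicate 2 (-2.29, limma adjusted p = 0.0319). These differences share the WT libraries. Since WT drought and UBQ well-watered were alike in the low stretch of 2A, UBQ minus WT is a difference between labels and may not compare 2 genotypes each with itself.

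In well-watered leaves the lines were set against WT. NAM-A1 was higher in UBQ by 1.46 ± 0.66 and NAM-D1 by 1.29 ± 0.64 on the log2 scale (standard error), and neither passed the test (limma adjusted p = 0.0960 and 0.129), where 31.1% of tested genes were called. Leaving out WT well-watered replicate 2, the library with most of the NAM-1 reads of its group, brought NAM-D1 to 2.04 (limma adjusted p = 0.0190), and a pseudocount of 5 in place of 1 gave a call of NAM-A1 (0.94, limma adjusted p = 0.0228). In DREM, where 21.3% of tested genes were called, NAM-A1 was lower by 1.94 ± 0.66 (log2 difference -1.94, limma adjusted p = 0.0347), with 9 reads in WT against 1 in DREM, a ratio of 13.5 (counting interval 1.87 to 591). This call was lost without WT well-watered replicate 1 or 2 and without DREM well-watered replicate 1 or 3 (adjusted p up to 0.161 over all alternatives), with libraries rescaled to the same sum, with a pseudocount of 5, and with only these groups in the fit. NAM-D1 in DREM was at 0.06 ± 0.64 (limma adjusted p = 0.972). In DEH2, with 19.5% called, NAM-A1 was at -0.69 ± 0.66 and NAM-D1 at -0.74 ± 0.64 (limma adjusted p = 0.539 and 0.480).

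Under drought both NAM-1 copies were lower than in WT in UBQ and in DEH2. In UBQ the log2 differences were -2.45 ± 0.66 for NAM-A1 and -2.32 ± 0.64 for NAM-D1 (standard error; limma adjusted p = 0.00201 and 0.00226), with 60.9% of tested genes called. The reads were 18 in WT against 1 in UBQ for NAM-A1, a ratio of 25.7 (4.07 to 1073), and 15 against 1 for NAM-D1, a ratio of 21.5 (3.30 to 903). In DEH2 NAM-A1 was at -1.72 ± 0.66 and NAM-D1 at -2.28 ± 0.64 (limma adjusted p = 0.0271 and 0.00282), with 58.0% of tested genes called. The call of NAM-A1 in DEH2 was lost without WT drought replicate 3 or without DEH2 drought replicate 2 (adjusted p up to 0.164). In DREM the differences were -0.96 ± 0.66 and -0.36 ± 0.64, not called (limma adjusted p = 0.218 and 0.653), with 58.9% called. None of these 6 results crossed the threshold when WT drought replicate 1 was left out.

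The lines also differed from each other in NAM-1. In well-watered leaves NAM-A1 was lower in DREM than in UBQ, by a log2 difference of -3.39 ± 0.66 (limma adjusted p = 0.000116, with 36.1% of tested genes called). All 32 alternatives kept this call, with the set of tested genes held fixed when libraries were left out. Both copies passed the filter largely through UBQ well-watered, so comparisons with that group are not independent of the filter. In DEH2 against UBQ, well-watered, NAM-A1 was at -2.14 ± 0.66 and NAM-D1 at -2.03 ± 0.64 (limma adjusted p = 0.0141 and 0.0157; 28.5% called). Both calls were lost without UBQ well-watered replicate 1. That of NAM-A1 was also lost without DEH2 well-watered replicate 1, and that of NAM-D1 without UBQ well-watered replicate 2 or without DEH2 well-watered replicate 2 or 3. Under drought NAM-D1 was higher in DREM than in UBQ (1.96 ± 0.64, limma adjusted p = 0.0128; 42.8% called), while NAM-A1 was at 1.48 ± 0.66 (limma adjusted p = 0.0713) and was called without DREM drought replicate 2 (limma adjusted p = 0.0274) and with libraries rescaled to the same sum. NAM-D1 was also higher in DREM than in DEH2 (DEH2 minus DREM -1.92 ± 0.64, limma adjusted p = 0.0148; 42.6% called), a call that was lost without DREM drought replicate 2 or 3 or without DEH2 drought replicate 1. Both calls of NAM-D1 under drought were lost with a pseudocount of 5. The other 7 of the 12 line-to-line tests of the NAM-1 copies did not pass; these include both copies in DEH2 against DREM, well-watered (17.7% called), and in DEH2 against UBQ under drought (40.2% called).

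The NAM-2 copies did not pass the filter on low values. When all 83513 identifiers with any read were kept in the fit, NAM-D2 rose with drought in WT by 1.65 ± 0.61 on the log2 scale (standard error; limma adjusted p = 0.0276), where 45.8% of genes were called. This call was lost without WT drought replicate 1, the library that stood apart (1.12, limma adjusted p = 0.174), and without WT well-watered replicate 1 or 3 (1.13 each, limma adjusted p = 0.176 and 0.174); without WT well-watered replicate 2 the change was 2.69 (limma adjusted p = 6.43e-05). It also rose in DREM, by 1.57 ± 0.61 (limma adjusted p = 0.0313; 52.5% called), where 8 reads in 3 drought libraries stood against 0; this call was lost without any 1 of the DREM well-watered libraries (adjusted p up to 0.0644) and without DREM drought replicate 3 (1.24, limma adjusted p = 0.137). Set against 3 reads over the well-watered group, the level of NAM-D2 in DREM drought was 1.99-fold higher, which leaves out the counting error of the 8 reads. The 95% counting interval of this ratio began at 1.27. Under drought, NAM-D2 was lower than in WT in UBQ and in DEH2, at -2.69 ± 0.61 in each (limma adjusted p = 0.000608 and 0.000665, with 46.0% and 42.9% called). There were 16 reads in WT against 0. Set against 3 reads in the lower group, the level was 7.63-fold and 6.92-fold lower. The 95% counting intervals of these ratios began at 5.52 (UBQ) and 5.01 (DEH2). Of the 16 reads in WT 9 were in WT drought replicate 1, the library that stood apart. Without it the folds against 3 reads were 4.54 and 4.12, for which no interval was computed. The log2 differences kept their call without any single library, and were at -2.16 each without WT drought replicate 1 (limma adjusted p = 0.00788 and 0.00848). NAM-D2 was also higher in DREM than in UBQ under drought (1.57 ± 0.61, limma adjusted p = 0.0489; 32.0% called), a call at the edge of the threshold that was lost in most omissions of a library, among them libraries of all 4 genotypes (adjusted p up to 0.189, without DREM drought replicate 3). Its drought effect in UBQ minus that in WT was -2.25 ± 0.86 (limma adjusted p = 0.0396; 38.4% called). That call was lost without WT drought replicate 1 (-1.73, limma adjusted p = 0.127), without WT well-watered replicate 1 or 3 and without UBQ well-watered replicate 3 or any 1 UBQ drought library (adjusted p up to 0.137). In this fit NAM-A2 and NAM-B2 were called in none of the 20 comparisons (limma, Benjamini-Hochberg), and an unadjusted p under 0.05 was reached by NAM-A2 in 1 of them, UBQ against WT under drought (-1.44 ± 0.60).

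The share of NAM-1 reads that fell on NAM-A1 varied widely between groups and was close in both regimes when reads were pooled. NAM-A1 took 49 of 97 NAM-1 reads in well-watered leaves, or 50.5% (Clopper-Pearson 95% interval 40.2% to 60.8%), and 35 of 67 under drought, or 52.2% (39.7% to 64.6%). Pooled shares are of estimated whole reads, and shares of single libraries, used for the means and the test below, are of normalized counts. Neither is per length, so shares are compared between conditions and not between copies. The mean over genotypes of the NAM-A1 share was 44.3% in well-watered and 57.7% in drought leaves, a difference of 13.4 percentage points that did not pass an exact permutation test of the regime labels within each genotype (two-sided p = 0.298, 22 libraries). The 2 libraries without any NAM-1 read, 1 of UBQ drought and 1 of DEH2 drought, have no share and were left out. Leaving out UBQ drought replicate 3, whose share rests on 1 read, gave 25.9 points (exact p = 0.0194), and leaving out UBQ drought replicate 2 gave 0.900 (exact p = 0.945). The NAM-A1 share was lowest in DREM well-watered, where 1 of 11 reads was of NAM-A1, 9.09% (0.230% to 41.3%), and highest in DEH2 drought, with 5 of 6 reads, 83.3% (35.9% to 99.6%). Of the 60 NAM-2 reads NAM-D2 held 7 of 17 in well-watered leaves (41.2%, 18.4% to 67.1%) and 24 of 43 under drought (55.8%, 39.9% to 70.9%). A test over libraries was not run for NAM-2, since 11 libraries had no NAM-2 read.

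The profiles of the copies over the 8 groups were compared by the root mean square difference of group means on the log2 scale, after each gene's mean was removed. NAM-A1 and NAM-D1 differed by 0.721, NAM-A2 and NAM-D2 by 0.631, and NAM-B2 and NAM-D2 by 0.824. A copy of NAM-1 and a copy of NAM-2 differed by 0.866 to 1.11, close above the last of these. The smallest difference, 0.425 between NAM-A2 and NAM-B2, is between genes that stay near 0 throughout. By the same measure the tested gene most like the NAM-1 sum was TraesCS4B02G252100 (0.357), which had 333.1 ± 38.1 normalized counts in UBQ well-watered, 343.4 ± 48.9 in WT drought and 37.4 ± 5.64 in UBQ drought (SD, n = 3 each). The next was TraesCS7B02G028300 (0.465), with 109.7 ± 9.00, 105.3 ± 9.50 and 13.8 ± 4.15 in the same groups. The genes most like the NAM-2 sum were TraesCS1A02G005400 (0.401), at 23.7 ± 3.48 in WT drought and 20.8 ± 8.52 in DREM drought, and TraesCS7D02G532100 (0.469), at 54.6 ± 4.12 and 18.2 ± 3.89 (SD, n = 3 each). These genes were chosen for their likeness, so their values are a description.

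**Figure D4:**
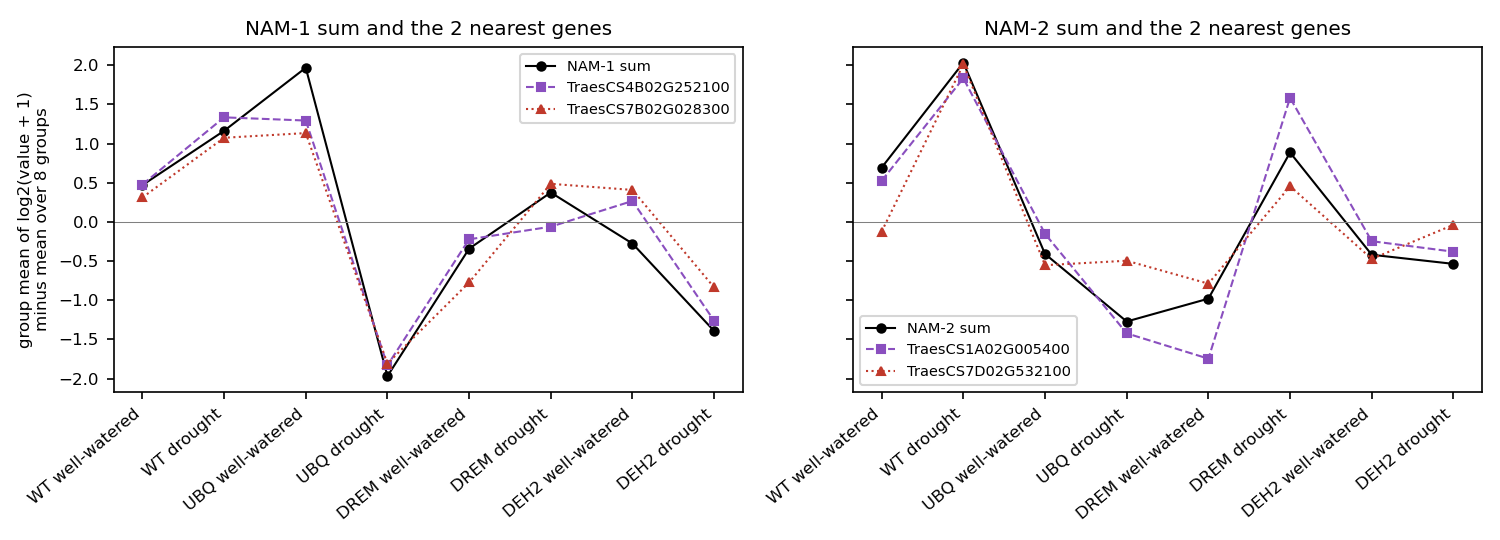
Mean of log2(normalized count + 1) in each of the 8 groups minus the mean over groups (vertical axis), for the NAM-1 sum (left) and the NAM-2 sum (right) in black and the 2 nearest tested genes of each in colour; lines only join the points of a gene. The NAM-1 sum and its nearest genes were lowest in UBQ drought, and the NAM-2 sum and its nearest genes highest in WT drought.

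The genes beside the NAM genes on the chromosomes were described by their medians, which as medians of many genes vary less than single genes. The 30 tested genes around each NAM gene in identifier order had a median log2 change with drought in UBQ between -0.53 (around NAM-D2) and -0.10 (around NAM-B2), with -0.43 around NAM-A1 and -0.31 around NAM-D1. For the drought effect of UBQ minus WT the medians were -0.21 around NAM-A1 and -0.50 around NAM-D1. Around NAM-A2, which lies before the low stretch of 2A, the median change in WT drought was -0.06.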

How the data were processed

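Leaf RNA was sequenced in 24 libraries of 8 groups. The authors deposited normalized counts, a signal per gene scaled between libraries and not summing to a common total (32500000 to 54400000). Per the submitters' processing notes the tools were DESeq2, Salmon, STAR, Trimmomatic and CASAVA, with no version; a genome build is not stated in the sources used here. Division of reads between near-identical A, B and D copies is uncertain. The members and lists were chosen with earlier results of these data known. The series' design text, which counts 27 samples, goes against the 24 sample labels, which were used.

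The value of 1 read was the most frequent value among genes seen in 1 library only; 117 of the 120 NAM values lay within 0.05 of whole reads. Depth limits precision: 0 reads were taken to allow a normalized count of up to 1.95 to 4.63 (3 reads) in a library. Intervals (95%) cover counting error only. limma 3.58.1 (R 4.3.3) was fitted to log2(value + 1) of the 8 groups over the 60088 genes with a value of 10 or more in 3 or more libraries, with an intensity trend and robust prior, Benjamini-Hochberg adjustment within each of 20 comparisons, a threshold of 0.05 and two-sided tests. Over all tested genes the median change was at most 0.0334 from 0, so a general rise or fall could not be seen. On simulated data with known changes the fit recovered most of them, with more false calls than its threshold allows. The outcome was not split by level, so it does not show how the fit behaves for genes as low as these. Calls with an adjusted p close to 0.05 should be read with this excess in mind. Whole reads were looked for only in the NAM values and in genes seen in 1 library, and no count model was fitted. Named are the 5 NAM genes and, by rule, the 2 tested genes most like each family's sum. None of the identifiers matched the 155467 genes of the name table (IWGSC CS RefSeq v2.1), so the pathway list had 0 members. Alternatives that leave out libraries kept the same 60088 genes; leaving out libraries without the filter for NAM-D2, and read ratios without WT drought replicate 1, were added after the data were seen. Other tools were scipy 1.17.1, numpy 2.4.6, pandas 2.3.3 and matplotlib 3.10.9.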

Additional observations from a re-analysis of the deposited data

Results flagged for a closer look

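The difference between genotypes in the drought change of NAM-1 is given here because the test of the difference itself passed. Both copies passed the filter largely through UBQ well-watered, a group in this difference, so the test is not independent of the filter. The drought effect in UBQ minus that in WT was -3.91 for NAM-A1 and -3.61 for NAM-D1 on the log2 scale (limma adjusted p = 0.000786 and 0.00117). The UBQ well-watered libraries had the low stretch of 2A (-0.71) and so did the WT drought libraries (-0.70), while WT well-watered (0.0377) and UBQ drought (0.0602) did not; the UBQ drought libraries had the low start of 6B. The labels of UBQ and WT may thus not stand for the same genotype in both regimes, and the difference may compare different genotypes. NAM-1 was at 22.9 in UBQ well-watered, 12.0 in WT drought, 9.06 in WT well-watered and 0.540 in UBQ drought. The part of the stretches in the result was not tested.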

How the results depend on the processing

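Of the 40 tests of the NAM-1 copies 15 were called. Of all 60088 tested genes, 17.7% (DEH2 against DREM, well-watered) to 81.8% (drought averaged over genotypes) were called in a comparison. A call by itself is therefore common. Of the 15 calls 8 were kept under every alternative, 7 were lost under at least 1 and none reversed, while 6 uncalled results were called under an alternative. The omissions of libraries held the set of tested genes fixed. Calls among members numbered 2 of 8 tests for drought within a genotype, against 5 of 20 tests without the filter, so the share called was the same. With drought in WT, 61.4% of all tested genes were called with the filter and 45.8% without it. Averaged over genotypes, 1 was called, against 0 with libraries rescaled to the same sum or without genotype UBQ, and 2 with quantile normalization or without genotype WT or DREM. For lines against WT in well-watered leaves 1 was called, NAM-A1 in DREM, against 0 with rescaling or with only the 2 groups compared in the fit. The count stayed at 1 with a pseudocount of 5 and without WT well-watered replicate 2, but the call was then in UBQ and not in DREM. Between lines 5 were called, against 3 with a pseudocount of 5. Leaving out single libraries gave 2 to 3 calls for drought within a genotype, 1 to 1 averaged over genotypes, 0 to 1 for lines against WT well-watered, 3 to 4 under drought, 3 to 5 between lines and 2 to 3 for differences of drought effects. The difference in NAM-A1 share, drought minus well-watered, ranged from 0.900 to 25.9 percentage points when single libraries were left out. With a replicate block, drought calls within a genotype numbered 2 as in the main fit; replicate numbers did not pair libraries (correlations of deviations -0.027 to 0.038). Uncalled values that changed sign were NAM-A1 averaged over genotypes without genotype UBQ (0.46) and, for NAM-D1, drought in DREM with quantile normalization (-0.0572), DREM against WT well-watered with a pseudocount of 5 (-0.0593) or quantile normalization (-0.19), and DREM against WT drought with rescaling (0.0283). Leaving out single libraries also moved 5 uncalled values across 0: NAM-A1 with drought in WT (-0.0177 to 0.90), and NAM-D1 with drought in DREM (-0.0365 to 0.41), in DREM against WT well-watered (-0.32 to 0.81), in DEH2 against WT well-watered (-1.12 to 0.0115) and in DEH2 against UBQ drought (-0.26 to 0.30). The cause of these shifts was not tested. With the stricter filter of 30 no NAM gene was tested. With 224 reads in all, depth limits every value.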
